A study of Mus musculus with 7 samples.

Results

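The 9 genes described here act in making, exporting or breaking down glucose in the liver, and were followed in livers of TET1 KO and WT mice fed a high fat diet (HFD). They were taken by name from the gene symbols of the count tables: G6pc, Slc37a4, Pck1, Fbp1 and Slc2a2 on the side of glucose production and export, and Gckr, Pklr, Pfkfb1 and Pfkfb3 on the side of glucose breakdown and its control. All 9 were found, out of 51426 genes in the joined tables, and all 9 passed the filter on low counts, which left 14754 genes for testing.

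Polyadenylated or rRNA-depleted RNA of hepatic tissue was sequenced in 7 male mice, 3 WT and 4 TET1 KO. Both groups were 8 weeks old when put on the HFD and stayed on it for 16 weeks. The labels give the strain of both groups as C57BL/6J, and the methods name a B6;129S4-Tet1tm1.1Jae/J line as the source of the deleted allele. TET1 is an enzyme that oxidises methylated cytosine in DNA, and the deletion was present in the whole body, so that other organs that set blood glucose lacked it too. Livers of mice on a normal diet were not analysed here. The study's methods say that serum was taken from mice that had not been fasted, while the feeding state of the mice when liver was taken and the hour of collection are not given in the sources used here. Nothing in the labels says whether mice shared a litter or a cage, and p-values measure only the spread between these mice.

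The liver releases glucose between meals and takes it up after them. Gluconeogenesis builds glucose from lactate, amino acids and glycerol through phosphoenolpyruvate carboxykinase (Pck1), fructose-1,6-bisphosphatase (Fbp1) and glucose-6-phosphatase (G6pc), and glucagon and fasting raise Pck1 and G6pc transcription while insulin lowers it. Glycolysis runs the other way through phosphofructokinase and the liver pyruvate kinase (Pklr), and the transcription factor ChREBP raises Pklr when glucose is plentiful.

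None of the 9 genes was called higher in TET1 KO livers and none was called lower by edgeR's quasi-likelihood test at a Benjamini-Hochberg adjusted p under 0.05, where 0.874% of all tested genes were called higher and 1.15% lower. With library size alone as the scaling, 107 genes of the whole table were called higher and 312 lower, against 129 and 169, and the members still had no call. The only member with an unadjusted p under 0.05 was Fbp1, 1 of 9, against 26.3% of all tested genes. Its level in TET1 KO livers averaged 41.5% of that in WT livers. The median log2 fold change of the 9 genes, TET1 KO over WT, was -0.06, against 0.01 for all tested genes. Of the members 3 lay above 0 and 6 below, where 48.9% of all tested genes lay below 0. Levels are given as CPM, a gene's share of the library's counts after TMM scaling, and log2 fold changes are those of the edgeR fit.

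**Figure D1:**
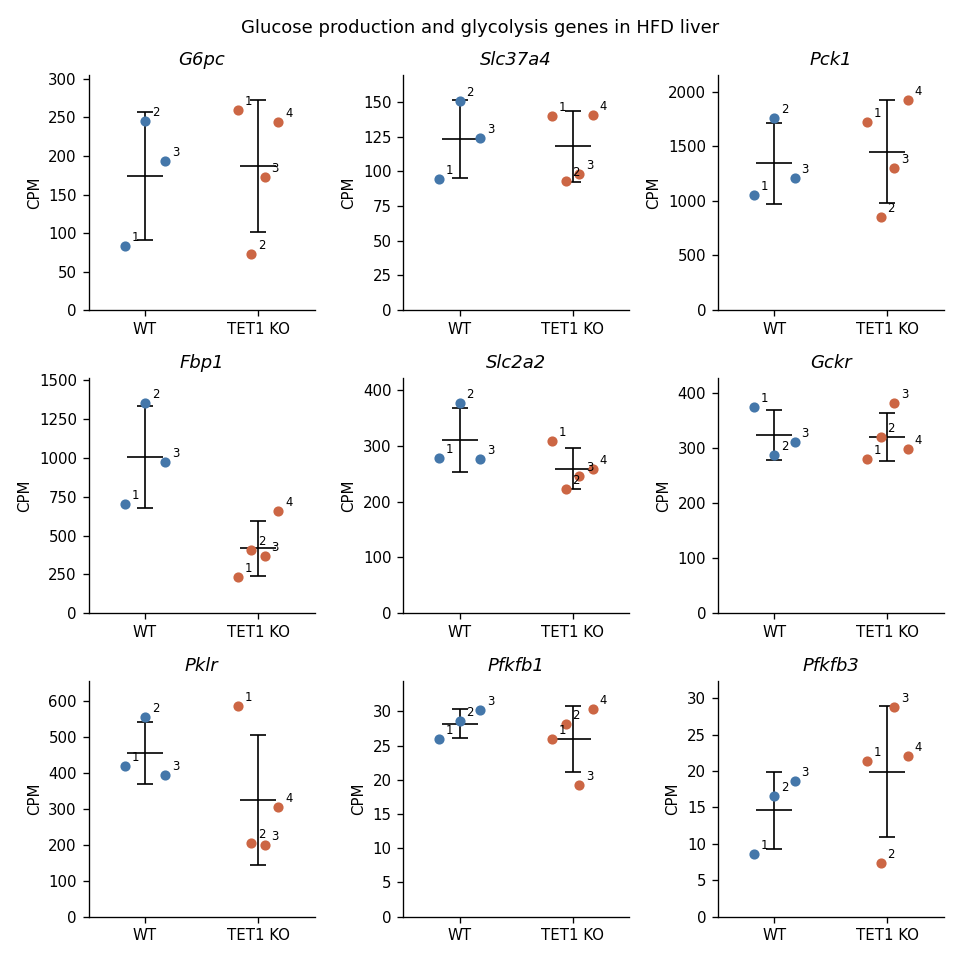
Each panel plots 1 gene in CPM on a linear axis starting at 0, with a point for each mouse numbered as in the labels, blue for the 3 WT and orange for the 4 TET1 KO mice, and the mean ± SD in black. In the Fbp1 panel all 4 TET1 KO mice sit below all 3 WT mice, from 235 to 660 against 701 to 1352 CPM, and in the other 8 panels the groups overlap.

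Fbp1 (ENSMUSG00000069805, chr13:62864753-62888298 in GRCm38) encodes the enzyme that removes a phosphate from fructose-1,6-bisphosphate, the step of gluconeogenesis that opposes phosphofructokinase. Its level was 701, 1352 and 972 CPM in WT mice 1 to 3, and 235, 409, 371 and 660 CPM in TET1 KO mice 1 to 4. The groups did not overlap, although TET1 KO mouse 4 lay close to WT mouse 1. The means were 1008 ± 327 CPM in WT (SD, n = 3) and 419 ± 177 CPM in TET1 KO (SD, n = 4). The log2 fold change was -1.27 ± 0.32 (SE), with a 95% interval from -1.97 to -0.57 and an edgeR adjusted p of 0.0630, which missed the threshold. DESeq2, run as an alternative, called Fbp1 lower with an adjusted p of 0.00142, and it was the only member DESeq2 called. That tool called 9.14% of the 14577 genes to which it gave an adjusted p. Across the alternative settings the edgeR and DESeq2 adjusted p of Fbp1 ran from 0.00142 to 0.283 and its log2 fold change from -1.58 to -1.0022. Without TET1 KO mouse 4, the highest of its group, the edgeR adjusted p was 0.0209, and without the filter on low counts it was 0.0322, so that both settings called Fbp1 lower. An exact two-sided permutation test of the difference in mean log2 CPM over the 35 ways to split the mice gave p = 0.0571, where the smallest p this design allows is 0.0286. Fbp1 was also the only member whose groups did not overlap, 1 of 9, where 22.5% of all tested genes had groups that did not overlap.

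**Figure D2:**
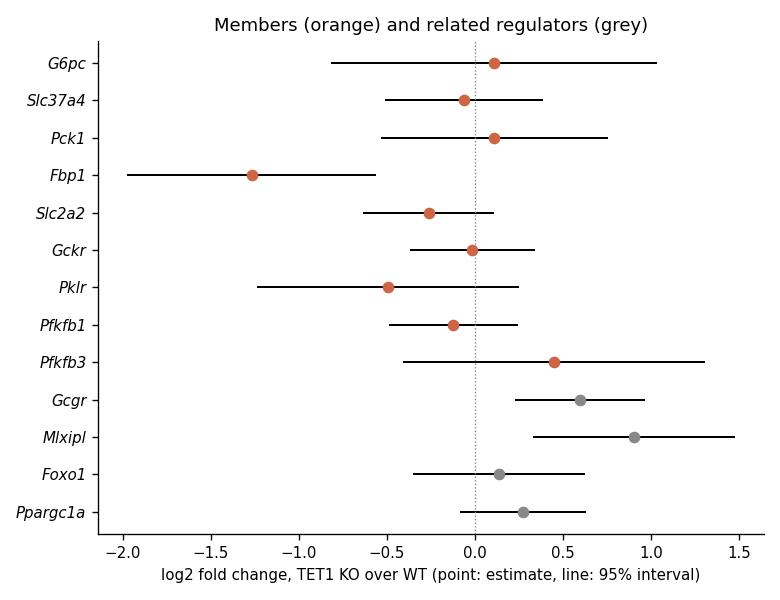
The x axis gives the log2 fold change of TET1 KO over WT from the edgeR fit, with points for estimates and lines for 95% intervals, orange for the 9 members and grey for 4 related genes. The intervals of 8 members cross 0 and that of Fbp1 runs from -1.97 to -0.57, while those of Gcgr and Mlxipl lie above 0. The intervals are not adjusted for the number of genes, and none of the genes shown had an edgeR adjusted p under 0.05.

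G6pc (ENSMUSG00000078650, chr11:101367716-101377903) encodes the catalytic subunit of glucose-6-phosphatase, which releases free glucose in the endoplasmic reticulum. It stood at 82.7, 245 and 193 CPM in WT mice 1 to 3, and at 259, 72.6, 173 and 245 CPM in TET1 KO mice 1 to 4. WT mouse 1 and TET1 KO mouse 2 were low and the other 5 mice were high, so the spread lay within each group and the groups overlapped over most of their range. The highest mouse was 2.97 times the lowest in WT and 3.57 times in TET1 KO. The log2 fold change was 0.11 ± 0.42 (SE), with an edgeR adjusted p of 0.888. Its 95% interval from -0.81 to 1.03, not adjusted for the number of genes, corresponds to a fold of 0.569 to 2.04. Changes within that range were not excluded, and the interval is not a limit of what the adjusted test could detect.

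Slc37a4 (ENSMUSG00000032114, chr9:44396946-44402966) encodes the transporter that carries glucose-6-phosphate into the endoplasmic reticulum for that enzyme. It measured 94.4, 151 and 124 CPM in WT mice 1 to 3, and 140, 93.2, 98.1 and 140 CPM in TET1 KO mice 1 to 4. WT mouse 1 and TET1 KO mouse 2 were again the lowest of their groups, TET1 KO mouse 3 was nearly as low, and the groups overlapped. Its log2 fold change was -0.06 ± 0.20 (SE), with a 95% interval from -0.50 to 0.38 and an edgeR adjusted p of 0.864.

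Pck1 (ENSMUSG00000027513, chr2:173153073-173159274) encodes the cytosolic enzyme that turns oxaloacetate into phosphoenolpyruvate. It reached 1057, 1763 and 1209 CPM in WT mice 1 to 3, and 1718, 855, 1303 and 1923 CPM in TET1 KO mice 1 to 4. The lowest mouse and the highest mouse of the study were both TET1 KO, mice 2 and 4. Between groups the log2 fold change was 0.11 ± 0.29 (SE), with a 95% interval from -0.53 to 0.75 and an edgeR adjusted p of 0.83.

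G6pc rose and fell from mouse to mouse together with Slc37a4 and Pck1. Over the 7 mice, log2 CPM of G6pc and Slc37a4 had a Pearson r of 0.887 (exact permutation p = 0.00119, adjusted over the 36 pairs of members 0.0429) and a Spearman rho of 0.893 (exact permutation p = 0.0123, adjusted 0.148). For G6pc and Pck1 the Pearson r was 0.922 (exact permutation p = 0.00238, adjusted 0.0429) and the Spearman rho 0.821 (exact permutation p = 0.0341, adjusted 0.246). For Pck1 and Slc37a4 the Pearson r was 0.884 (exact permutation p = 0.0208, adjusted 0.150) and the rho 0.929 (exact permutation p = 0.00675, adjusted 0.121). The pair of Pck1 and Slc37a4 therefore did not pass, and of the 36 pairs, 2 passed the adjusted threshold by Pearson r, and by Spearman rho none did. Leaving out WT mouse 1 and TET1 KO mouse 2, the mice farthest from the median of G6pc, r was 0.923 for G6pc with Slc37a4 and 0.888 for G6pc with Pck1 over the 5 other mice. With each genotype's mean removed, r was 0.901 and 0.922 for the same pairs. Fbp1 had a Pearson r of 0.10 to G6pc, 0.12 to Pck1 and 0.30 to Slc37a4, and of 0.26, 0.34 and 0.35 with each genotype's mean removed, and none of these pairs passed. In the WT mice alone Fbp1 had the same order as G6pc. In a ranking of 14753 other tested genes by Pearson r to G6pc, added after the values were seen, Pck1 stood at place 23 and Slc37a4 at place 54. Places 1 to 3 were held by Egln2 (r = 0.973), Per1 (r = 0.967) and Chordc1 (r = 0.964). The labels name the same stranded library kit for all 7 mice, but which of them had poly(A) selection or rRNA depletion is not stated.

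**Figure D3:**
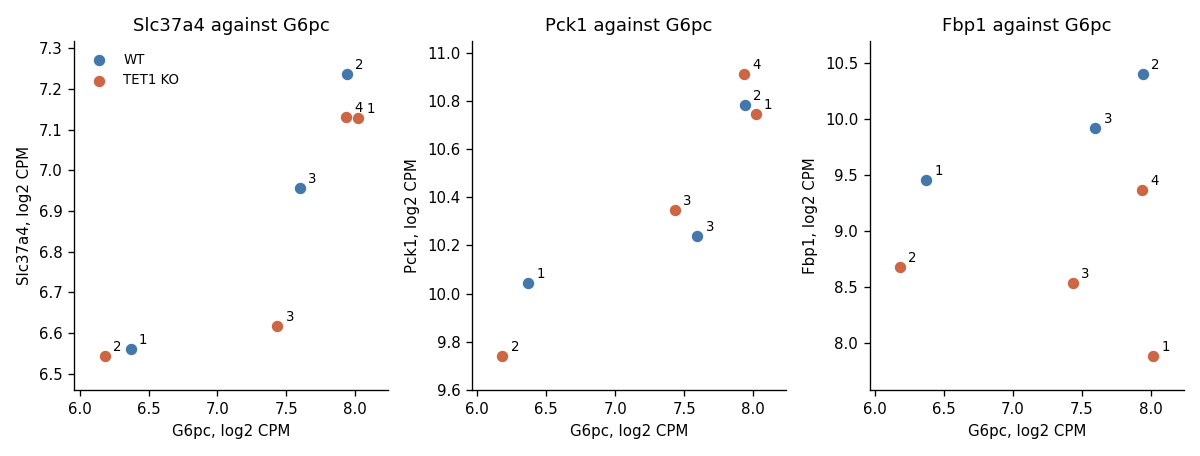
Each panel sets log2 CPM of a gene against log2 CPM of G6pc, with a numbered point for each mouse, blue for WT and orange for TET1 KO. Slc37a4 and Pck1 are higher in mice with higher G6pc (Pearson r = 0.887 and 0.922), while in the Fbp1 panel the points do not fall along a common line (r = 0.10) and WT mice lie above TET1 KO mice of similar G6pc level.

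The 250 bases before the annotated start of Pck1, G6pc and Fbp1 are shown because the former pair moved together and Fbp1 was the member that differed most between groups. The start is that of the RefSeq promoter table, which for Fbp1 lies inside the outer limit of the gene given above, so that 16 bases of its window fall within that limit. They come from RefSeq promoters of GRCm38.p6 and are written 5′ to 3′ on the strand of the gene. Capitals mark the core of the cAMP response element (TGACG), the forkhead core bound by FOXO and FOXA proteins (TGTTTAC or TGTTTGC) and the TATA box (TATAAA), each searched on both strands.
Pck1, chr2:173152823-173153072, plus strand: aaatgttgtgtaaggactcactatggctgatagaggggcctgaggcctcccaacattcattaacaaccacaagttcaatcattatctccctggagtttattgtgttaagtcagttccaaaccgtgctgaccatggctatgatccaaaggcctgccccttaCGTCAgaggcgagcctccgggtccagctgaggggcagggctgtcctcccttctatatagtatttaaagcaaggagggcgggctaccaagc
G6pc, chr11:101367466-101367715, plus strand: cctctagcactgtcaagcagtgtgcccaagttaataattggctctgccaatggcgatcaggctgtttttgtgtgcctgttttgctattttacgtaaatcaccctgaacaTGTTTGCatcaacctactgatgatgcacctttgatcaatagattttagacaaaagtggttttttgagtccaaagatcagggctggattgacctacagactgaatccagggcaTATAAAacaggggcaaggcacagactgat
Fbp1, chr13:62888283-62888532, minus strand: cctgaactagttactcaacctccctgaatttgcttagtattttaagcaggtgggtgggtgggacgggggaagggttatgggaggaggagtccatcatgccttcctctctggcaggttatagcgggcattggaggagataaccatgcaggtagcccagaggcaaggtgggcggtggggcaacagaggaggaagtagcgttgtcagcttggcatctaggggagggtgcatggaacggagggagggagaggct
The Pck1 window held the cAMP response element core on the other strand, 90 bases before the start. The G6pc window held a forkhead core 141 bases before the start and a TATA box 29 bases before it. None of these letters occurred in the Fbp1 window. Of 32851 promoters of the same length, 17.8% held TGACG, 7.29% a forkhead core and 12.4% TATAAA, and of the 16 annotated starts of the 9 members these counted 5, 1 and 4. Only these exact letters were searched, so variant forms of the sites were not counted and their absence from a window was not shown. The matches describe the letters and were not tested for binding.

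Slc2a2 (ENSMUSG00000027690, chr3:28697903-28728361) encodes GLUT2, the main glucose transporter of the hepatocyte membrane. It measured 278, 376 and 277 CPM in WT mice 1 to 3, and 309, 222, 245 and 259 CPM in TET1 KO mice 1 to 4. All TET1 KO mice but mouse 1 lay below the WT mice, and mouse 1 fell inside their range. The log2 fold change was -0.26 ± 0.17 (SE), with a 95% interval from -0.63 to 0.10 and an edgeR adjusted p of 0.328.

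Pklr (ENSMUSG00000041237, chr3:89136122-89146815) encodes the liver pyruvate kinase, the last enzyme of glycolysis. It stood at 421, 556 and 394 CPM in WT mice 1 to 3, and at 586, 206, 199 and 306 CPM in TET1 KO mice 1 to 4. TET1 KO mouse 1 was the highest mouse of the study and the other 3 TET1 KO mice lay below every WT mouse. The coefficient of variation was 55.9% in TET1 KO and 19.0% in WT, where the medians over all tested genes were 17.7% and 16.2%. The log2 fold change was -0.49 ± 0.34 (SE), with a 95% interval from -1.23 to 0.24 and an edgeR adjusted p of 0.359. Without TET1 KO mouse 1 it was -0.95 with an adjusted p of 0.0560, still above the threshold. Pklr and Slc2a2 had a Pearson r of 0.883 over the 7 mice (exact permutation p = 0.00496, adjusted 0.0595), which did not pass.

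Gckr (ENSMUSG00000059434, chr5:31297266-31327302) encodes a regulatory protein of hepatic glucose use. It was 375, 287 and 311 CPM in WT mice 1 to 3, and 281, 321, 382 and 298 CPM in TET1 KO mice 1 to 4. The groups covered nearly the same range. The log2 fold change was -0.02 ± 0.16 (SE), and its 95% interval from -0.37 to 0.33 was the narrowest of the 9 (edgeR adjusted p = 0.957). Gckr and Slc37a4 had a Pearson r of -0.850 across mice, which did not pass after adjustment (exact permutation p = 0.0177, adjusted 0.150).

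Pfkfb1 and Pfkfb3 encode bifunctional enzymes that make and remove fructose-2,6-bisphosphate, the signal that switches phosphofructokinase on and fructose-1,6-bisphosphatase off. Pfkfb1 (ENSMUSG00000025271, chrX:150587445-150643878), the liver form, measured 25.9, 28.5 and 30.2 CPM in WT mice 1 to 3, and 25.9, 28.2, 19.2 and 30.3 CPM in TET1 KO mice 1 to 4. TET1 KO mouse 3 was low and the other 3 lay between 25.9 and 30.3 CPM, close to the WT range of 25.9 to 30.2 CPM (log2 fold change -0.12 ± 0.16 SE, edgeR adjusted p = 0.653). Pfkfb3 (ENSMUSG00000026773, chr2:11471430-11554071), an inducible form with high kinase activity, was low at 8.56, 16.6 and 18.6 CPM in WT mice 1 to 3, and 21.4, 7.33, 28.7 and 22.04 CPM in TET1 KO mice 1 to 4. Mice 1, 3 and 4 of the TET1 KO group lay above all WT mice and mouse 2 lay below them all, again the mouse with the lowest G6pc. Its log2 fold change was 0.45 ± 0.39 (SE), with a 95% interval from -0.40 to 1.30 and an edgeR adjusted p of 0.470. The Pearson r of Pfkfb3 with G6pc was 0.860 over the 7 mice (exact permutation p = 0.0365, adjusted 0.219) and -0.53 without WT mouse 1 and TET1 KO mouse 2, so that this relation rested on those mice.

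Per kilobase of exon and over all mice, the members were ordered as Pck1, Fbp1, Gckr, Pklr, Slc2a2, G6pc, Slc37a4, Pfkfb1 and Pfkfb3. The mean level over the 7 mice was 409 ± 117 CPM per kilobase for Pck1 (SD, n = 7) and 394 ± 228 for Fbp1. On this scale their order followed genotype. Fbp1 lay above Pck1 in all 3 WT mice, at means of 592 ± 192 and 392 ± 108 CPM per kilobase (SD, n = 3). It lay below Pck1 in all 4 TET1 KO mice, at 246 ± 104 and 423 ± 138 (SD, n = 4). In CPM, without division by exon length, Pck1 lay above Fbp1 in every mouse, so this order rests on the lengths used. Every neighbouring pair from Pck1 down to Slc37a4 overlapped in range. Slc37a4, from 38.3 to 62.0 CPM per kilobase, lay above Pfkfb1, from 4.79 to 7.55, which lay above Pfkfb3, from 1.04 to 4.09, without overlap in the 7 mice. Together the 9 genes took between 0.209% and 0.506% of a library's counts.

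The enzymes that oppose the members were described as differences of log2 CPM within each mouse, without a test. Pfkl, the liver phosphofructokinase, minus Fbp1 averaged -5.11 ± 0.19 in WT (SD, n = 3) and -4.07 ± 0.56 in TET1 KO (SD, n = 4). The groups did not overlap, and as Fbp1 alone already separated them, this is not independent of the Fbp1 difference. Pfkl itself had a log2 fold change of -0.29 and an edgeR adjusted p of 0.317. Pklr minus Pck1 averaged -1.54 ± 0.18 in WT and -2.24 ± 0.55 in TET1 KO, and the groups overlapped. Pfkfb3 minus Pfkfb1 averaged -1.02 ± 0.49 in WT and -0.52 ± 1.04 in TET1 KO, also with overlap. CPM counts reads, so only the shift between groups can be read from these differences, not the ratio of enzymes.

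Mlxipl, which encodes ChREBP, stood between 272 and 471 CPM in WT and between 493 and 872 CPM in TET1 KO. Its groups did not overlap, and its log2 fold change of 0.90 ± 0.26 (SE) had an edgeR adjusted p of 0.0793. Gcgr, the glucagon receptor gene, lay between 214 and 272 CPM in WT and between 313 and 442 CPM in TET1 KO, again without overlap (log2 fold change 0.60 ± 0.16 SE, edgeR adjusted p = 0.0754). DESeq2 called both, at an adjusted p of 0.0100 for Mlxipl and of 0.0142 for Gcgr. Foxo1, the insulin-restrained activator of G6pc and Pck1, overlapped between groups (log2 fold change 0.13, edgeR adjusted p = 0.717). Ppargc1a, its coactivator, was low, from 7.67 to 8.08 CPM in WT and from 8.59 to 11.3 CPM in TET1 KO (log2 fold change 0.27, edgeR adjusted p = 0.288).

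Beyond the members, 115 genes of 8 lists on glucose metabolism were examined, of which 105 were tested. None was called higher by edgeR and 2 were called lower, Me1 and Gbe1, while 13 had an unadjusted p under 0.05 upward and 19 downward and DESeq2 called 4 higher and 14 lower. The genes with an unadjusted p under 0.05 were 30.5% of the tested list genes, beside 26.3% of all tested genes. DESeq2 called 17.3% of the 104 list genes to which it gave an adjusted p, beside 9.14% of all 14577 such genes. Genes of these lists that are named from DESeq2 calls were chosen after their values were seen. Me1, the cytosolic malic enzyme that supplies NADPH for fat synthesis, was 148, 260 and 105 CPM in WT mice 1 to 3 and 35.2, 13.8, 16.3 and 58.9 CPM in TET1 KO mice 1 to 4. Its log2 fold change was -2.46 ± 0.46 (SE), with an edgeR adjusted p of 0.0271. Gbe1, the glycogen branching enzyme, was 85.6, 169 and 93.9 CPM in WT mice 1 to 3 and 35.2, 40.1, 42.5 and 64.9 CPM in TET1 KO mice 1 to 4. Its log2 fold change was -1.34 ± 0.26 (SE), with an edgeR adjusted p of 0.0295. For both genes all TET1 KO mice lay below all WT mice. The count of 2 fell to 0 without WT mouse 2 and likewise without TET1 KO mouse 1, 2 or 3, and rose to 7 without TET1 KO mouse 4, while with robust dispersions only Gbe1 was called.

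The 22 tested other glycolysis enzymes had a median log2 fold change of -0.17 and no edgeR call, while DESeq2 called Pfkm and Eno1 lower. Pfkm, the muscle form of phosphofructokinase, had the smallest p among them, at 11.7 to 16.7 CPM in WT and 8.38 to 8.91 CPM in TET1 KO (log2 fold change -0.65, edgeR adjusted p = 0.0638). The 15 tested other genes of gluconeogenesis and precursor supply had a median of -0.27 and no edgeR call, while DESeq2 called Pck2 higher and Gpd1, Gk and Pcx lower. Gpd1, which links glycerol to the pathway, had the smallest unadjusted p among them (0.00134, beside 0.00136 for Gk), with 307 to 435 CPM in WT and 214 to 230 CPM in TET1 KO (log2 fold change -0.65, edgeR adjusted p = 0.0546). The 16 regulators of glucose production had a median of 0.26 and no edgeR call. Of them 14 lay above 0, where 48.9% of all tested genes lay below 0. In that list DESeq2 called Gcgr and Crtc2 higher. Crtc2, the coactivator of CREB, had the smallest p of that list, at 19.9 to 24.6 CPM in WT and 28.3 to 32.4 CPM in TET1 KO (log2 fold change 0.49, edgeR adjusted p = 0.0690).

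The 11 ChREBP and glucose-responsive genes had a median of 0.11, with Me1 as the only edgeR call, and the 17 tested glycogen genes a median of -0.23, with Gbe1 as the only edgeR call. In the former list DESeq2 called Mlxipl too, and in the latter Ugp2 and Pygl, both lower. The 10 tested pyruvate dehydrogenase genes, which encode the mitochondrial complex that turns pyruvate into acetyl-CoA and the kinases and phosphatases that switch it off and on, had a median of -0.42 and no edgeR call, while DESeq2 called Dlat, Pdha1 and Dld lower. Among them Dlat, a subunit of the complex, measured 35.9 to 52.4 CPM in WT and 17.8 to 31.5 CPM in TET1 KO (log2 fold change -0.72, edgeR adjusted p = 0.0753). The 8 pentose phosphate genes had a median of -0.07 and no edgeR call, while DESeq2 called Pgd and Tkt lower, with Pgd at the smallest p (log2 fold change -0.56, edgeR adjusted p = 0.0811). The 6 tested other sugar transporters had a median of 0.18 and no call by either tool, with Slc2a8 at the smallest p (log2 fold change 0.20, edgeR adjusted p = 0.464).

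**Figure D4:**
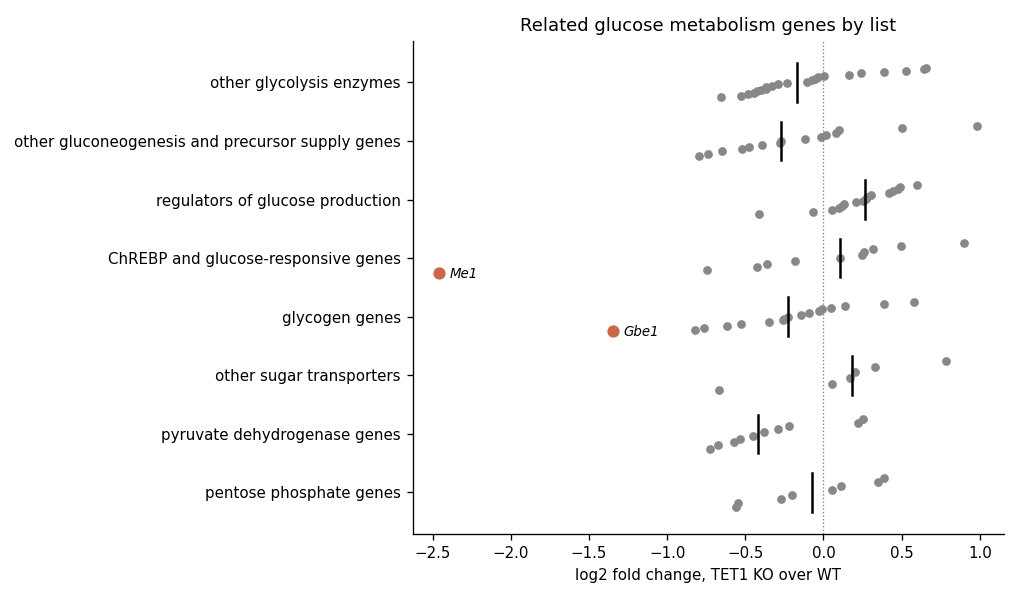
Each row is a list of glucose metabolism genes and each point a tested gene, placed by its log2 fold change of TET1 KO over WT and spread vertically only for display, with orange for genes at an edgeR adjusted p under 0.05 and a black bar for the list median. Me1 at -2.46 and Gbe1 at -1.34 are the only orange points, and the medians lie between -0.42 and 0.26.

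The 3 tested genes outside the list whose log2 CPM followed Fbp1 most closely over the 7 mice were Gm15163 (Pearson r = 0.9991), Gm12696 (r = 0.9941) and Gm5540 (r = 0.9941), given as a description. All 3 are pseudogenes in the RefSeq annotation, whose counts may include reads of the genes they were copied from. Their log2 fold changes were -1.96, -0.57 and -1.27, in the same order, and the edgeR adjusted p was 0.0626, 0.107 and 0.0538.

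Library totals ran from 15005277 to 22746138 counts, and members had between 104 and 42518 counts in a library. Tet1 had between 1 and 4 counts in every library of both groups, so the transcript level could not check the genotype. In bulk liver, fewer cells of a type and less RNA per cell cannot be told apart. Hepatocyte markers were abundant in all mice, with no edgeR call among 8, and periportal hepatocyte markers, where gluconeogenesis is strongest, summed to between 3359 and 3853 CPM in WT and between 3017 and 3797 CPM in TET1 KO, with only Cdh1 of 8 called by edgeR (higher). No gene was called by edgeR among 10 pericentral, 8 macrophage, 7 endothelial, 7 stellate cell, 5 tested cholangiocyte, 5 tested lymphocyte and 1 tested adipocyte markers. In these cell type lists DESeq2 also called Apoa1, Serpina1a, Cyp27a1, Epcam and Sox9 higher and Hsd17b13, Lyve1, Col1a1 and Col3a1 lower, genes named after their values were seen. Cholangiocyte markers summed to between 29.8 and 38.0 CPM in WT and between 46.3 and 68.5 CPM in TET1 KO, and adipocyte markers reached 19.4 CPM in TET1 KO mouse 2 and at most 3.25 CPM elsewhere. TET1 KO mouse 1, the lowest in Fbp1 and the highest in Pklr, stood apart in pericentral markers, which summed to 6003 CPM against 8579 to 10860 CPM in the other 6 mice, and in the Arntl arm clock genes, at 144 CPM against 91.7 to 106 CPM. The part of these cells in the values of Fbp1, Pklr and G6pc was not tested. Of 9 clock genes of the Dbp and Per arm, 4 were called higher in TET1 KO by edgeR and 6 by DESeq2, and the list's summed level was 481 to 592 CPM in WT and 779 to 908 CPM in TET1 KO. None of 5 tested genes of the Arntl arm was called by either tool. Among 7 fasting-induced genes edgeR called only Cyp4a14, lower, and DESeq2 called Fgf21 lower as well. The log2 fold change was below 0 in 6 of the 7, beside 48.9% of all tested genes, with a median of -0.44. The summed level of the 7 genes was 2810 to 4270 CPM in WT and 2559 to 2904 CPM in TET1 KO. The bearing of clock phase and feeding on the members was not tested.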

How the data were processed

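Hepatic RNA of 3 WT and 4 TET1 KO male mice was sequenced, and the authors deposited a table of raw read counts per gene for each mouse. Per the labels, total RNA was enriched with poly(A) beads or depleted of rRNA and prepared with a stranded kit, and which of these each sample received is not stated. The submitters' processing notes name Trimmomatic 0.36, GSNAP, featureCounts 1.5.3 and GRCm38. The annotation release, the strand setting and the treatment of reads that match several genes are not given in the sources used here, so overlapping or antisense genes could share counts.

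The 7 tables were joined by Ensembl identifier (51431 entries, of which 5 repeats were left out), and groups were taken from the sample titles. Totals were 15005277 to 22746138 counts. Genes were filtered with filterByExpr, scaled by TMM and tested with edgeR 4.0.16 (R 4.3.3) by quasi-likelihood on genotype alone, with Benjamini-Hochberg adjustment over 14754 genes and a threshold of 0.05. CPM values used TMM library sizes, and log2 CPM for correlations and permutation tests used a prior count of 2. Levels per kilobase used exon lengths of an older mouse annotation (GENCODE M1). DESeq2 1.42.0, other scalings and filters, a replicate block and the omission of each mouse were alternatives. The code was tested on simulated data. Coordinates and promoters are from RefSeq GRCm38.p6, in which all 9 members were matched. Named genes were the 9 members, Mlxipl, Foxo1, Ppargc1a and Gcgr, every called gene and the gene of smallest p in each of 8 pathway lists, and the 3 genes that correlated best with the member of smallest p. A further gene of this rule is not reported here. The members, the 8 pathway lists and the 12 lists of cell type markers, fasting genes and clock genes were chosen with earlier results of these data known.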

Additional observations from a re-analysis of the deposited data

Results flagged for a closer look

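In the 4 TET1 KO mice, 26 measures were searched for a mouse far from the others (the named genes and the summed CPM of the members), and chance alone gives about 1 in 20. Gpd1 in TET1 KO mouse 4 was the only such value: at 214 CPM its gap to the next mouse was 0.883 of the group's range, above Dixon's 95% critical value for 4 samples, while the other 3 mice lay between 228 and 230 CPM. All 4 remained below the WT mice, at 307 to 435 CPM.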

How the results depend on the processing

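No member was called higher under any of the 14 alternatives. The count of members called lower went from 0 to 1, Fbp1 each time, with DESeq2, without the low-count filter and with the replicate block, and ranged from 0 to 1 when single mice were left out. The median log2 fold change of the members stayed between -0.23 and -0.02. Pathway genes called higher went from 0 to 4 with DESeq2 and 3 with the replicate block, and from 0 to 2 with single mice left out. Pathway genes called lower went from 2 to 14 with DESeq2, 6 with library size only, 5 with no filter, 1 with robust dispersions and 11 with the replicate block, and from 0 to 7 with single mice left out. All genes called higher went from 129 to 633 with DESeq2, 245 with no filter and 670 with the replicate block, and from 16 to 427 with single mice left out. All genes called lower went from 169 to 699 with DESeq2, 312 with library size only, 347 with no filter and 656 with the replicate block, and from 22 to 464 with single mice left out. The cause was not tested. Nothing in the labels says whether replicate numbers pair the mice. Deviations of same-numbered mice correlated at 0.21, -0.12 and -0.10 over genes, and 1 of 3 WT mice correlated best with its own number. With so few mice these values cannot decide whether same-numbered mice shared a litter, cage or batch. Signs near 0 turned for 5 genes. Gckr was 0.015 with the replicate block and ran from -0.13 to 0.089 with single mice left out. Pck1 was -0.073 with the replicate block and ran from -0.056 to 0.35. G6pc was -0.10 with the replicate block and ran from -0.24 to 0.44. Slc37a4 ran from -0.23 to 0.10 and Foxo1 from -0.033 to 0.35. The exact test of Fbp1 gave p from 0.0667 to 0.133 with single mice left out, where the smallest p is 0.0667 without a WT mouse and 0.10 without a TET1 KO mouse.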
